A study of Homo sapiens with 12 samples.

Results

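The genes described here are 55 genes of mitosis and the G2/M transition of the cell cycle, taken by name from the 19923 protein-coding genes of the deposited count files, where each of the 55 was found. They encode the kinases, cyclins, checkpoint proteins, kinetochore and spindle proteins, condensins and cytokinesis factors of cell division, and were followed in SK-N-BE2 and NGP. Both are established human neuroblastoma cell lines, wild type by their labels, in which the oncogene MYCN is amplified. STM2457 inhibits METTL3, the methyltransferase that places N6-methyladenosine (m6A) on messenger RNA, and DMSO is its solvent. The 4 groups, each of 3 replicates, were SK-N-BE2 with DMSO, SK-N-BE2 with 12 µM STM2457, NGP with DMSO and NGP with 1 µM STM2457, each kept for 6 days. Polyadenylated RNA was sequenced to between 47242379 and 58159937 counted reads per library. Line, dose and sequencing run differed together, so a difference between the lines cannot be told apart from a difference between doses or runs.

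Entry into mitosis is driven by cyclin-dependent kinase 1 bound to A- and B-type cyclins. Its switching on is aided by CDC25 phosphatases, which remove inhibitory phosphates, and by Polo-like and Aurora kinases. Kinetochores then attach chromosomes to the spindle, the spindle checkpoint delays the anaphase-promoting complex until attachment is complete, and the dividing cell is cut by the cytokinesis machinery. Many of these genes are transcribed late in the cell cycle by a complex of MuvB proteins with B-MYB (MYBL2) and FOXM1, which acts at a promoter element called the CHR, often beside CCAAT boxes bound by NF-Y. In bulk RNA, a larger share of cells in mitosis and more of these transcripts per cell cannot be told apart.

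The promoters of 5 of the genes are printed here to show these elements, with the CHR searched only as TTTGAA or TTCGAA. CDC25C, CCNB2 and MKI67 hold both elements, KIF20A holds CCAAT boxes without either CHR spelling, and MYBL2 holds no match. Other spellings of the CHR were not searched, so a missing match does not show that a promoter lacks the element. Each sequence is the RefSeq promoter on GRCh38.p14 from 150 bases before to 30 bases after the annotated start, read 5′ to 3′ on the gene's strand. Capitals mark the CHR core (TTTGAA or TTCGAA) and the CCAAT box, on either strand, so that a CCAAT box on the opposite strand reads ATTGG. The windows are chr5:138331775-138331954, minus strand for CDC25C, chr15:59104996-59105175, plus strand for CCNB2, chr10:128126394-128126573, minus strand for MKI67, chr5:138178962-138179141, plus strand for KIF20A and chr20:43666964-43667143, plus strand for MYBL2.
CDC25C: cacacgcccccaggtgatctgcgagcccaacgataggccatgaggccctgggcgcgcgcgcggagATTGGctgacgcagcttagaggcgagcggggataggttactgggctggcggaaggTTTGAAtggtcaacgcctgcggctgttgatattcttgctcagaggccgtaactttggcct
CCNB2: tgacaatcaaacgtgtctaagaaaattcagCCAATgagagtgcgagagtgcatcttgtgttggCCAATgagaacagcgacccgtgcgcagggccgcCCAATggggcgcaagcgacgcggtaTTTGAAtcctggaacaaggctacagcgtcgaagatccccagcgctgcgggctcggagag
MKI67: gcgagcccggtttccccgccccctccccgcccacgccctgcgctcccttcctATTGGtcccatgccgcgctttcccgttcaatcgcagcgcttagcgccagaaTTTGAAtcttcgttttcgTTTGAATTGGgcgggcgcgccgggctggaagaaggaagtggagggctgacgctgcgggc
KIF20A: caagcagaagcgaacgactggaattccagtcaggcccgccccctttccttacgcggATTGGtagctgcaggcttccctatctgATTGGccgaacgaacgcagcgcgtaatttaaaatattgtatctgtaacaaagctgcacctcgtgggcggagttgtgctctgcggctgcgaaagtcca
MYBL2: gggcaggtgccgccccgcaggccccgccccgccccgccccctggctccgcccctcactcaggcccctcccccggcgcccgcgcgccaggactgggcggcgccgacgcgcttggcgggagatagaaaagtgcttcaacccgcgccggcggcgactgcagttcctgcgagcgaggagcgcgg
The CHR core began 30 bases before the start in CDC25C and 29 bases before it in CCNB2 and MKI67. MKI67 held a further CHR core 47 bases before its start. In MKI67 the CHR core nearer the start shared 1 base with the CCAAT box beside it. CDC25C has 4 annotated windows, of which 1 is shown, chosen because it held the most CHR and CCAAT matches.

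Of the 55 genes, 48 were matched by symbol to 60 RefSeq promoter windows of 300 bases (250 before to 50 after the start). A CHR core stood in a window of 37 of the 48 genes (77.1%), against 15.9% of the 11628 genes of the fits that had a window and 16.4% of all 35116 windows in the table. With TTTGAA alone the count was 33. A CCAAT box stood in a window of 38 of the 48 (79.2%), against 43% of the genes of the fits, and both elements stood in the same window in 31 (64.6%), against 6.74%. The E2F-site form TTTNGCGC, which marks many genes of the G1/S transition, stood in 2 of the 48 (4.17%), against 3.47%. Other spellings of the E2F site were not searched, so these shares do not show how many promoters hold an E2F site. Over the windows the median distance from the start was 25.5 bases upstream for the 53 CHR matches and 83 bases upstream for the 89 CCAAT matches. Of these, 43 CHR and 58 CCAAT matches lay within 100 bases of the start. A match in overlapping windows of a gene was counted in each. A match describes these letters and does not show that a factor binds there.

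**Figure D1:**
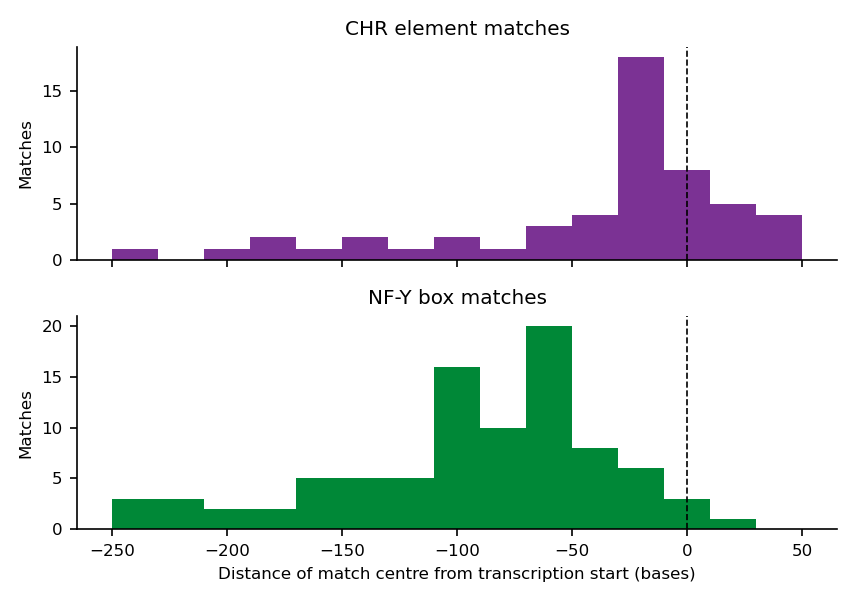
Number of matches of the CHR element (top) and of the CCAAT box bound by NF-Y (bottom) by the distance of the match centre from the annotated start, over the 60 promoter windows of 48 genes; the dashed line is the start. CHR matches gather just before the start, with a median of 25.5 bases upstream, and CCAAT matches further upstream, with a median of 83 bases.

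With STM2457 the transcripts of the 55 genes together took a larger share of the reads in both lines. Levels are given as CPM, reads per 1000000 reads of a library, scaled by the TMM method. In SK-N-BE2 the summed level was 3678, 3723 and 3463 CPM in the DMSO libraries and 5966, 6210 and 5838 CPM in the STM2457 libraries. In NGP it was 5269, 5075 and 5401 CPM with DMSO and 8233, 8303 and 8585 CPM with STM2457. Each treated library of a line thus lay above its 3 controls. SK-N-BE2 had means of 3621 ± 139 CPM and 6005 ± 189 CPM (SD, n = 3), a ratio of 1.66. NGP had means of 5248 ± 164 CPM and 8374 ± 186 CPM (SD, n = 3), a ratio of 1.60. The exact two-sided permutation test gave p = 0.1 in each line, the smallest value that 3 against 3 libraries allow. Without TOP2A, CENPF and TPX2, the 3 most abundant of the genes, the ratios were 1.66 and 1.55.

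**Figure D2:**
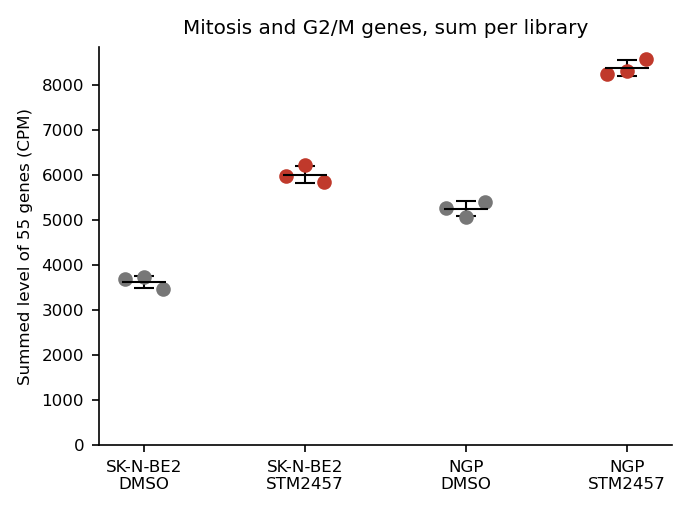
Summed level of the 55 genes in each library, in CPM, by line and treatment; points are libraries, horizontal bars the mean and error bars the SD of 3 libraries. The STM2457 libraries lie between 5838 and 6210 CPM in SK-N-BE2, above DMSO libraries at 3463 to 3723, and between 8233 and 8585 CPM in NGP, above DMSO libraries at 5075 to 5401.

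Gene by gene, 46 of the 55 were called higher and 2 lower with STM2457 in SK-N-BE2, where 26.9% of the 14013 genes tested were called higher and 27.8% lower. In NGP, 43 were called higher and 1 lower, where 19.4% of 13610 genes tested were called higher and 22.2% lower. A gene was called at an adjusted p under 0.05 in edgeR's quasi-likelihood test over all genes. The 55 had a median log2 fold change of 0.63 (SK-N-BE2) and 0.66 (NGP), against -0.02 and -0.03 over all genes tested. The range in SK-N-BE2 was -0.53 to 1.71, and that in NGP -0.61 to 1.501. The 3 treated libraries lay above the 3 controls for 48 of the genes in SK-N-BE2, against 33.2% of all genes tested, and for 49 in NGP, against 28.4%. They lay below the controls for 3 of the genes in SK-N-BE2 and 1 in NGP, against 29% and 26.2% of all genes. A log2 fold change of at least 1 with a call was reached by 9 of the 55 in SK-N-BE2 and 10 in NGP, against 5.48% and 5.94% of the genes tested. With any 1 library left out, 43 of the 46 calls in SK-N-BE2 and 35 of the 43 in NGP stayed in each of the 6 fits. NGP DMSO replicate 1 lay apart from the other NGP controls over all genes, and without it 50 of the 55 were called higher and 1 lower in NGP. Over the 13776 genes tested in that fit, 3805 were called higher and 4092 lower. The main NGP fit had called 2644 and 3027 of 13610.

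Higher calls in both lines were made for 38 of the 55, against 10.5% of the 12952 genes tested in both. Another 8 were called higher in SK-N-BE2 without a call in NGP, and 4 the reverse. Of the 8, CKS1B, CKS2, CDC20, AURKB, BIRC5 and KIF23 each had an NGP call in 1 of the 6 fits without a library. NDC80 and SMC4 had none. Of the 4, CDCA8, HJURP and PSRC1 each had an SK-N-BE2 call in 1 of 6 such fits, and CDCA3 had none. A missing call in a line thus does not show that the gene was unchanged there. CDCA2 was called lower in SK-N-BE2 and higher in NGP, where 4.96% of all genes were called in opposite directions. SGO1 and NUSAP1 were called in neither line, and CDC25C and CDC25B each had a lower call in a single line.

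**Figure D3:**
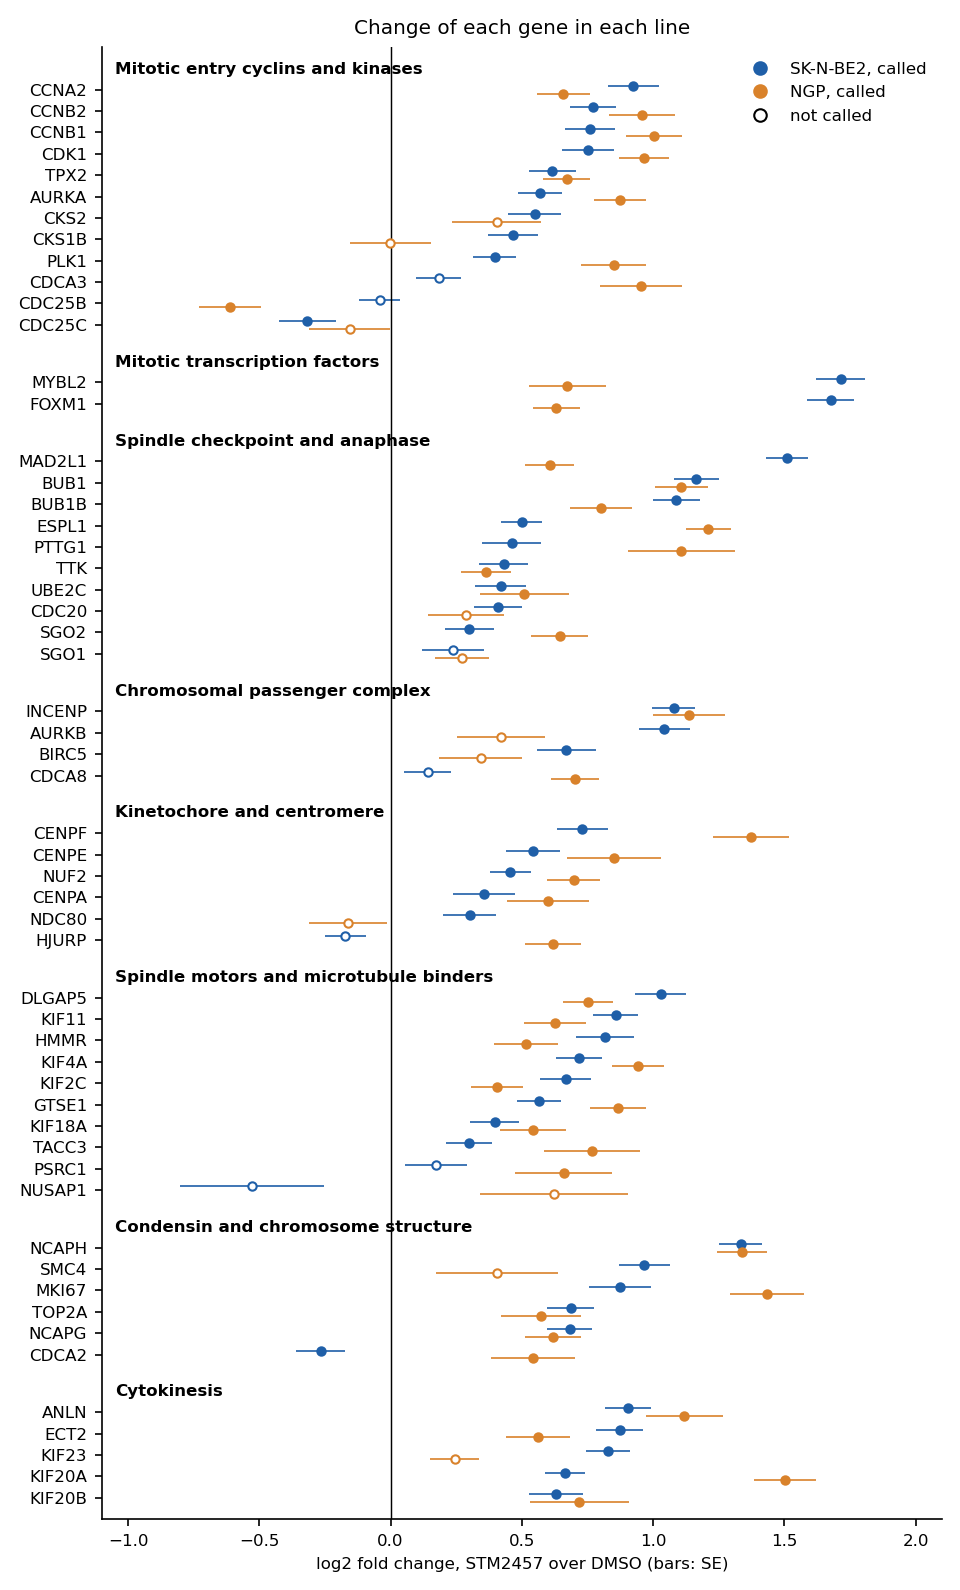
Log2 fold change of each of the 55 genes with STM2457 against DMSO in SK-N-BE2 (blue) and NGP (orange), grouped by role; error bars are the SE of the fit, and open circles are genes not called. Most points lie to the right of 0 in both lines, and CDC25C, CDC25B and CDCA2 carry the lower calls.

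Among the 12 cyclins, kinases and phosphatases of mitotic entry, 9 were higher and 1 lower in SK-N-BE2 (median log2 fold change 0.56), and 8 were higher and 1 lower in NGP (median 0.76). The catalytic kinase CDK1 went from 70.7 ± 9.53 to 122 ± 4.38 CPM (SD, n = 3) in SK-N-BE2, and NGP had 90.1 ± 5.66 against 179 ± 9.73 CPM, log2 fold changes of 0.75 and 0.96. CCNA2 (chromosome 4, 121816444 to 121823933; GRCh38), which encodes cyclin A2, had 44.8, 49.1 and 40.8 CPM with DMSO and 88.8, 94.6 and 78.9 CPM under STM2457 in SK-N-BE2 (a log2 fold change of 0.92, SE 0.10, adjusted p = 4.08e-06). Its levels in NGP were 77.9, 80.2 and 92.5 CPM with DMSO and 131, 136 and 135 CPM with STM2457 (a log2 fold change of 0.66, SE 0.10, adjusted p = 0.00121). The treated libraries lay above the controls in both lines. Here and in what follows, values of DMSO libraries precede those of STM2457 libraries. CCNB1 (chromosome 5, 69167135 to 69178245), cyclin B1, stood at 100.4, 123 and 98.7 CPM with DMSO and 189, 188 and 183 CPM under STM2457 in SK-N-BE2 (a log2 fold change of 0.76, SE 0.10, adjusted p = 2.04e-05). Its NGP levels were 91.2, 73.2 and 81.95 CPM and 167, 161 and 175 CPM (a log2 fold change of 1.00, SE 0.11, adjusted p = 0.0002). The groups did not overlap in either line, and the NGP rise of CCNB1 was the largest of the entry genes there. CCNB2, the other B-type cyclin of this group, rose by 0.77 and 0.96 on the log2 scale. PLK1 (0.40 and 0.85), AURKA (0.57 and 0.87) and TPX2 (0.62 and 0.67), the Polo-like kinase, Aurora A and the activator of Aurora A, rose in both lines.

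The lower calls of this group were those of CDC25C in SK-N-BE2 and CDC25B in NGP, each in a single line. Both belong to the CDC25 phosphatases, which switch CDK1 on. A further one, CDC25A, is in the wider list described below. It was called higher in SK-N-BE2 (a log2 fold change of 0.56, adjusted p = 0.000618). In NGP it was not called (-0.08, adjusted p = 0.541). CDC25C (chromosome 5, 138285265 to 138338355) had 11.97, 13.3 and 13.5 CPM with DMSO in SK-N-BE2 and 10.7, 10.9 and 10.2 CPM with STM2457 (a log2 fold change of -0.32, SE 0.11, adjusted p = 0.0231). The treated libraries lay below the controls there, but the call was lost in 4 of the 6 fits without a library, those without DMSO replicate 3 (adjusted p = 0.0657) and STM2457 replicates 1, 2 and 3 (0.0646, 0.0507 and 0.0942). In NGP its 20.9, 14.2 and 16.3 CPM with DMSO overlapped the 16.1, 15.1 and 15.8 CPM with STM2457, and it was not called (a log2 fold change of -0.16, SE 0.15, adjusted p = 0.449). CDC25B (chromosome 20, 3786772 to 3806121) stood at 497, 376 and 394 CPM with DMSO in NGP and at 285, 283 and 275 CPM with STM2457 (a log2 fold change of -0.61, SE 0.12, adjusted p = 0.00396). These groups did not overlap, and the call was kept in each fit without a library. In SK-N-BE2 its 172, 161 and 158 CPM with DMSO and 169, 163 and 158 CPM with STM2457 overlapped (a log2 fold change of -0.04, SE 0.08, adjusted p = 0.673; 95% interval -0.19 to 0.11). The small CDK-binding proteins CKS1B and CKS2 were called higher in SK-N-BE2 only (0.47 and 0.55), with -0.00 and 0.40 in NGP, and neither difference between the lines was called (adjusted p = 0.0729 and 0.608). Each had an NGP call in 1 of the 6 fits without a library (adjusted p = 0.0213 and 0.00037). CKS1B has 7 annotated pseudogenes (inactive gene copies) under its name, and reads that match several places were not counted. CDCA3, which takes part in the turnover of the inhibitor kinase WEE1, was called higher in NGP (0.95), with 0.18 in SK-N-BE2 (adjusted p = 0.0859).

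FOXM1 and MYBL2, the transcription factors that drive late cell cycle genes, rose in both lines and had the highest fold changes of the 55 in SK-N-BE2. MYBL2 (chromosome 20, 43667019 to 43716495) stood at 58.7, 70.2 and 62.96 CPM with DMSO and 233, 209.7 and 204 CPM under STM2457 in SK-N-BE2 (a log2 fold change of 1.71, SE 0.09, adjusted p = 1.24e-08). In NGP it stood at 278, 184 and 209 CPM and 375, 356 and 359 CPM (a log2 fold change of 0.67, SE 0.15, adjusted p = 0.00687). The NGP controls spread widely, and the highest of them still lay under the lowest treated library. FOXM1 (chromosome 12, 2857681 to 2877155) had 63.4, 63.9 and 55.8 CPM with DMSO and 217, 195 and 189 CPM under STM2457 in SK-N-BE2 (a log2 fold change of 1.68, SE 0.09, adjusted p = 1.04e-08). Its NGP levels were 111, 109.8 and 108 CPM and 178, 162 and 178 CPM (a log2 fold change of 0.63, SE 0.09, adjusted p = 0.000856). Treated and control libraries were apart in both lines for both factors. The counting did not use strand and dropped reads that lay on several counted genes, and 15.9% of FOXM1's exon length is shared with other genes in GENCODE 44, so its level is uncertain. Shares of 10.2%, 12.8% and 15.8% held for BUB1B, PLK1 and SGO1.

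Of the 10 genes of the spindle checkpoint and of anaphase, 9 were called higher in SK-N-BE2 (median log2 fold change 0.45) and 8 in NGP (median 0.62), and none lower. MAD2L1 (chromosome 4, 120055623 to 120066858), the MAD2 protein that blocks the anaphase-promoting complex, had 47.1, 51.9 and 48.4 CPM with DMSO and 144, 148 and 139 CPM under STM2457 in SK-N-BE2 (a log2 fold change of 1.51, SE 0.08, adjusted p = 1.04e-08). In NGP the values were 164, 139 and 147 CPM and 234, 229 and 234 CPM (a log2 fold change of 0.61, SE 0.09, adjusted p = 0.00137). The mean of the treated libraries was 2.92 times that of the controls in SK-N-BE2 and 1.55 times in NGP, without overlap in either line. ESPL1 (chromosome 12, 53268299 to 53293638), separase, the protease that opens cohesin at anaphase, had 57.7, 54.1 and 54.9 CPM with DMSO and 84.4, 81.1 and 76.4 CPM under STM2457 in SK-N-BE2 (a log2 fold change of 0.50, SE 0.08, adjusted p = 0.000141). Its NGP levels were 79.99, 82.2 and 82.6 CPM and 192, 187 and 196 CPM (a log2 fold change of 1.21, SE 0.09, adjusted p = 3.05e-05). Here the larger change was in NGP, and the libraries of each group lay close together. The checkpoint kinases BUB1 (1.16 and 1.11), BUB1B (1.09 and 0.80) and TTK (0.43 and 0.36) rose in both lines. So did PTTG1, securin, which holds separase back (0.46 and 1.11), and SGO2, a shugoshin that protects centromeric cohesin (0.30 and 0.64). UBE2C, the ubiquitin-conjugating enzyme of the anaphase-promoting complex, was called higher at 0.42 and 0.51, but its NGP call was lost in each fit without a library but that without DMSO replicate 1, with adjusted p from 0.0728 to 0.133. UBE2C has 5 annotated pseudogenes under its name. CDC20, the activator that the checkpoint holds, was higher in SK-N-BE2 (0.41) and was not called in NGP (0.29, adjusted p = 0.144). SGO1, the other shugoshin, had 0.24 and 0.27 without a call. The TTK call in NGP was lost without DMSO replicate 3 or STM2457 replicate 1 or 3 (adjusted p from 0.0555 to 0.0822), and the SGO2 call in SK-N-BE2 without DMSO replicate 3 or STM2457 replicate 2 or 3 (0.0516 to 0.0553).

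The chromosomal passenger complex places Aurora B at centromeres and at the midzone. INCENP (chromosome 11, 62123998 to 62153169), its scaffold, had 41.9, 39.7 and 45.4 CPM with DMSO and 95.4, 91.8 and 88.1 CPM under STM2457 in SK-N-BE2 (a log2 fold change of 1.08, SE 0.08, adjusted p = 2.83e-07). In NGP it had 50.2, 58.5 and 70.4 CPM and 123, 146 and 132 CPM (a log2 fold change of 1.14, SE 0.14, adjusted p = 0.0004). The 2 groups were apart in each line by more than the spread of their libraries. AURKB, the kinase, was called higher in SK-N-BE2, from 23.7 ± 2.55 to 50.02 ± 0.359 CPM (edgeR gave a log2 fold change of 1.04, SE 0.10, adjusted p = 1.48e-06). In NGP, where the DMSO libraries spread more, it had 123 ± 32.5 and 167 ± 1.03 CPM and was not called (a log2 fold change of 0.42, SE 0.17, adjusted p = 0.0753). BIRC5, survivin, was higher in SK-N-BE2 (0.67) and not called in NGP (0.34). CDCA8, borealin, was higher in NGP (0.70) and not called in SK-N-BE2 (0.14).

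Kinetochore and centromere genes were called higher for 5 of 6 in each line (medians 0.41 and 0.66), and none lower. CENPF (chromosome 1, 214603195 to 214664571), a large protein of the outer kinetochore, had 333, 276 and 273 CPM with DMSO and 474, 531 and 495 CPM under STM2457 in SK-N-BE2 (a log2 fold change of 0.73, SE 0.10, adjusted p = 3.37e-05). In NGP it had 165, 242 and 224 CPM and 554, 536 and 572 CPM (a log2 fold change of 1.37, SE 0.14, adjusted p = 0.00019). The lowest treated library exceeded the highest control in each line. The motor CENPE (0.54 and 0.85), the NDC80-complex subunit NUF2 (0.46 and 0.70) and the centromeric histone CENPA (0.36 and 0.60) rose in both. NDC80 itself, the partner of NUF2 in that complex, was higher in SK-N-BE2 (0.30) and had -0.16 in NGP without a call. HJURP, the chaperone that deposits CENPA, was higher in NGP (0.62) and had -0.17 in SK-N-BE2 without a call (adjusted p = 0.0786), although its treated libraries there lay below the controls. The CENPA call in SK-N-BE2 was lost without DMSO replicate 1 (adjusted p = 0.0671) or STM2457 replicate 1 (0.128), and in NGP without STM2457 replicate 2 (0.0553). The NDC80 call was lost without DMSO replicate 3 (0.0735) or STM2457 replicate 2 (0.113).

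Spindle motors and microtubule binders were higher for 8 of 10 in SK-N-BE2 (median 0.62) and 9 of 10 in NGP (median 0.64). DLGAP5 (chromosome 14, 55148112 to 55191608), a spindle-assembly factor also called HURP, had 34.4, 31.2 and 27.99 CPM with DMSO and 64.4, 69.9 and 61.6 CPM under STM2457 in SK-N-BE2 (a log2 fold change of 1.03, SE 0.10, adjusted p = 1.56e-06). In NGP the levels were 47.9, 45.9 and 48.8 CPM and 81.9, 77.2 and 85.1 CPM (a log2 fold change of 0.75, SE 0.09, adjusted p = 0.000483). KIF4A (chromosome X, 70290104 to 70420886), a chromosome-bound kinesin, had 41.9, 44.4 and 37.9 CPM and 67.9, 71.8 and 70.03 CPM in SK-N-BE2 (a log2 fold change of 0.72, SE 0.09, adjusted p = 1.51e-05). Its NGP levels were 42.05, 37.3 and 40.9 CPM and 76.1, 76.7 and 82.5 CPM (a log2 fold change of 0.94, SE 0.10, adjusted p = 0.00019). For both genes the treated libraries lay above the controls in both lines. KIF11, the motor that separates spindle poles (0.86 and 0.63), KIF2C, which takes microtubules apart (0.67 and 0.41), KIF18A, which shortens them at the kinetochore (0.40 and 0.54), HMMR (0.82 and 0.52), GTSE1 (0.56 and 0.87) and TACC3 (0.30 and 0.77) rose in both. PSRC1 was called in NGP (0.66), a call lost without DMSO replicate 3 or any STM2457 library (adjusted p from 0.0568 to 0.0803), and had 0.17 in SK-N-BE2. The KIF2C call in NGP was lost without STM2457 replicate 1 or 3 (0.0539 and 0.0686).

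NUSAP1, a microtubule-bundling protein, was the exception in level. It had 1.26, 1.33 and 1.30 CPM with DMSO and 0.776, 1.07 and 0.914 CPM under STM2457 in SK-N-BE2 (a log2 fold change of -0.53, SE 0.27, adjusted p = 0.119). In NGP it had 1.05, 0.978 and 0.953 CPM and 1.11, 1.75 and 1.81 CPM (a log2 fold change of 0.62, SE 0.28, adjusted p = 0.108). The treated libraries lay below the controls in SK-N-BE2 and above them in NGP, and neither change was called. Of its exon length, 86.8% is shared with other genes in GENCODE 44, so these few reads are an uncertain measure of the gene.

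Among the 6 condensin and chromosome structure genes, 5 were higher and 1 lower in SK-N-BE2 (median 0.78), and 5 were higher in NGP (median 0.60). NCAPH (chromosome 2, 96335766 to 96377091), the kleisin subunit of condensin I, had 24.3, 26.3 and 25.4 CPM with DMSO and 66.1, 65.7 and 64.8 CPM under STM2457 in SK-N-BE2 (a log2 fold change of 1.33, SE 0.08, adjusted p = 4.31e-08). In NGP it had 41.2, 40.9 and 44.9 CPM and 107, 106 and 114 CPM (a log2 fold change of 1.34, SE 0.10, adjusted p = 3.13e-05). The change was of nearly the same size in the lines, and the difference was 0.01 (SE 0.11). MKI67 (chromosome 10, 128096659 to 128126423), which encodes the proliferation marker Ki-67 that coats mitotic chromosomes, had 269.7, 186 and 220.0 CPM with DMSO and 403, 458 and 408 CPM under STM2457 in SK-N-BE2 (a log2 fold change of 0.87, SE 0.12, adjusted p = 4.07e-05). Its levels in NGP were 87.9, 127 and 113 CPM and 290.3, 297 and 314 CPM (a log2 fold change of 1.43, SE 0.14, adjusted p = 0.000129). In both lines the controls spread more than the treated libraries, and the groups did not overlap. CDCA2, which recruits a phosphatase to chromatin at the end of mitosis, had 40.1, 39.95 and 36.3 CPM with DMSO and 31.1, 36.5 and 31.7 CPM under STM2457 in SK-N-BE2 (a log2 fold change of -0.27, SE 0.09, adjusted p = 0.0288). There the groups overlapped, and the call was lost without DMSO replicate 1 or 2 (adjusted p = 0.0540 and 0.0563) and without STM2457 replicate 1 or 3 (0.128 and 0.123). In NGP it had 15.4, 21.03 and 21.5 CPM and 25.4, 27.99 and 32.6 CPM (a log2 fold change of 0.54, SE 0.16, adjusted p = 0.0254), with no overlap, and the call was lost without STM2457 replicate 2 or 3 (0.0551 and 0.108). TOP2A, the topoisomerase that untangles sister chromatids (0.69 and 0.57), and NCAPG, another condensin I subunit (0.68 and 0.62), rose in both lines, and SMC4, the ATPase of both condensins, in SK-N-BE2 (0.97) with 0.41 in NGP without a call. The TOP2A call in NGP was lost without STM2457 replicate 3 (adjusted p = 0.0615). Shared exon length in GENCODE 44 was 33.7% for NCAPG and 22.0% for SMC4.

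The 5 cytokinesis genes were all called higher in SK-N-BE2 (median 0.83) and 4 of them in NGP (median 0.72). ANLN (chromosome 7, 36389821 to 36453791), anillin, a scaffold of the contractile ring, had 44.2, 41.7 and 37.8 CPM with DMSO and 74.3, 83.3 and 79.9 CPM under STM2457 in SK-N-BE2 (a log2 fold change of 0.90, SE 0.09, adjusted p = 2.45e-06). In NGP the values were 56.9, 78.4 and 83.1 CPM and 157, 155 and 170.4 CPM (a log2 fold change of 1.12, SE 0.15, adjusted p = 0.000584). KIF20A (chromosome 5, 138178719 to 138187723), a kinesin of the spindle midzone, had 79.9, 76.8 and 75.00 CPM and 121, 129 and 126 CPM in SK-N-BE2 (a log2 fold change of 0.66, SE 0.08, adjusted p = 9.53e-06). It stood at 59.9, 72.4 and 78.5 CPM and 201, 196 and 211 CPM in NGP (a log2 fold change of 1.501, SE 0.12, adjusted p = 4.56e-05), the highest fold change of the 55 there. For both genes the treated libraries lay above the controls in both lines. ECT2, which activates RhoA at the division site (0.87 and 0.56), and KIF20B (0.63 and 0.72) rose in both lines, and the KIF20B call in NGP was lost without STM2457 replicate 3 (adjusted p = 0.0528). KIF23, the motor of the centralspindlin complex, rose in SK-N-BE2 (0.83) and was not called in NGP (0.24, adjusted p = 0.0661).

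**Figure D4:**
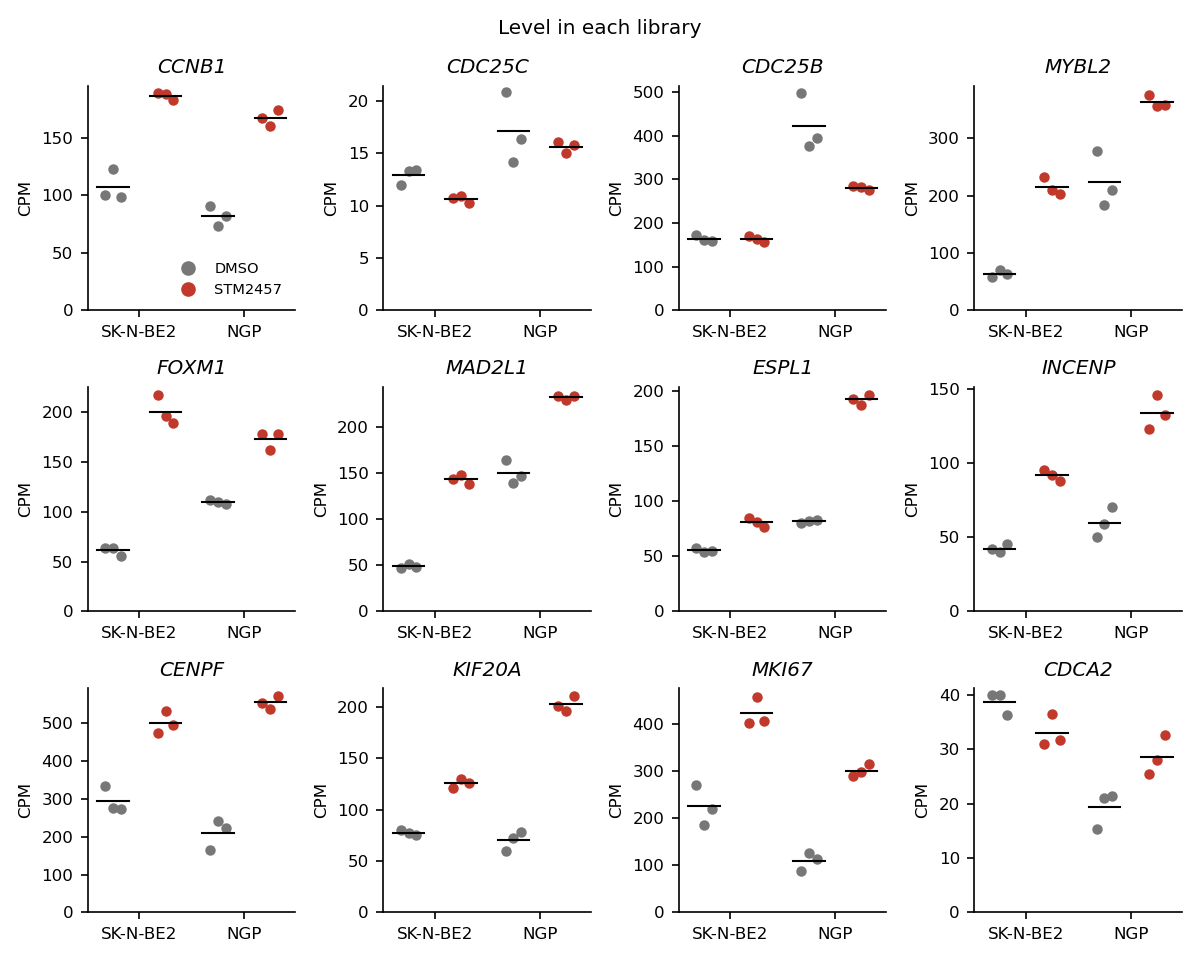
Level in CPM of 12 of the genes in each of the 12 libraries, by line, with DMSO in grey and STM2457 in red; black bars are means of 3 libraries, and each axis starts at 0. CDC25C in SK-N-BE2 and CDC25B in NGP are lower with STM2457, CDCA2 moves in opposite directions, and the other 9 are higher in both lines.

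The size of the response differed between the lines for 16 of the 55 genes by a test of the difference itself (SK-N-BE2 minus NGP over 12 libraries), against 30.9% of the 14731 genes tested. It was more positive in SK-N-BE2 for 6, against 17% of all genes, and more positive in NGP for 10, against 13.9%. The transcription factors led the first set, FOXM1 with a difference of 1.06, SE 0.12, adjusted p = 2.38e-05 and MYBL2 with a difference of 1.05, SE 0.18, adjusted p = 0.000626. MAD2L1 followed (a difference of 0.92, SE 0.12, adjusted p = 5.19e-05), then AURKB (0.64), KIF23 (0.60) and CDC25B (0.58), which was called lower in NGP. On the NGP side stood the midzone motor KIF20A (a difference of -0.83, SE 0.13, adjusted p = 0.000404), CDCA2 (a difference of -0.80, SE 0.19, adjusted p = 0.00587) and HJURP (a difference of -0.78, SE 0.12, adjusted p = 0.000348). The others were NUSAP1 (-1.14), CDCA3 (-0.76), ESPL1 (-0.70), CENPF (-0.63), MKI67 (-0.55), CDCA8 (-0.55) and PLK1 (-0.44). The calls of AURKB, PLK1, NUSAP1 and MKI67 were lost in 8, 8, 7 and 9 of 12 fits without a library, with adjusted p of up to 0.0735, 0.0863, 0.0812 and 0.110, and the other 12 were kept in each. Of the 8 genes with a higher call in SK-N-BE2 alone, AURKB and KIF23 had a called difference, and CKS1B, CKS2, CDC20, BIRC5, NDC80 and SMC4 did not. Of the 4 with a higher call in NGP alone, CDCA3, CDCA8 and HJURP had one, and PSRC1 did not. Without NGP DMSO replicate 1, 27 of the 55 had a called difference, 11 more positive in SK-N-BE2 and 16 in NGP. Calls also rose over all genes in that fit, to 6274 of 14943 from 4549 of 14731. Of the 6274, 3229 were more positive in SK-N-BE2 and 3045 in NGP.

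**Figure D5:**
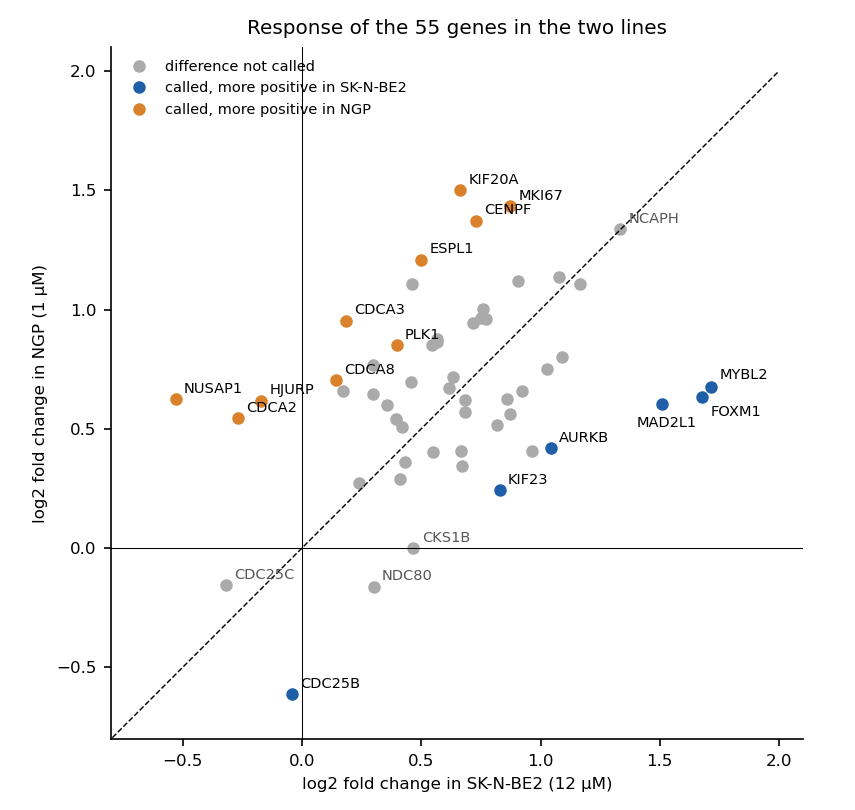
Log2 fold change with STM2457 of each of the 55 genes in SK-N-BE2 (horizontal axis, 12 µM) and NGP (vertical axis, 1 µM); the dashed line marks equal changes, and colours mark genes whose difference between the lines was called. FOXM1, MYBL2 and MAD2L1 lie furthest to the right of the line, and KIF20A, MKI67, CENPF and ESPL1 lie above it.

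Over the 55 genes, whose values are not independent of each other, the log2 fold changes of the lines were related with Pearson's r 0.348 and Spearman's rho 0.317. Levels per kilobase of exon with DMSO were more alike, with r 0.855 on the log2 scale. In SK-N-BE2 these levels ran from 0.359 to 78.1 CPM per kilobase (median 12.3), and NGP spanned 0.276 to 106.8 (median 15.4). CKS2 was the highest and NUSAP1 the lowest in both lines. Of the 55, 7 lie on chromosome 1 and 5 each on chromosomes 2, 4, 5 and 20. The log2 fold change had r 0.178 (SK-N-BE2) and 0.326 (NGP) with log2 exon length. The 37 genes with a CHR core in a promoter window had medians of 0.63 in each line, and the 11 without one 0.67 (SK-N-BE2) and 0.77 (NGP). All 11 without a TTTGAA or TTCGAA match, among them CCNB1, MYBL2, NCAPH and KIF20A, were called higher in SK-N-BE2 and 10 in NGP. Of the 37 with a match, 29 and 27 were called higher. Other spellings of the CHR were not searched, so these 11 are not shown to lack the element. CDC25C, which had the lower call among the entry genes in SK-N-BE2, holds both elements in the promoter printed above, as do CCNB2 and MKI67, which rose.

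A wider list of 109 other mitosis genes, with the remaining subunits of the same complexes, gave 67 higher and 7 lower in SK-N-BE2 (median log2 fold change 0.36) and 52 higher and 4 lower in NGP (median 0.32). Higher calls thus took 61.5% of the list in SK-N-BE2 and 47.7% in NGP, where all genes tested had 26.9% and 19.4%, and lower calls over all genes took 27.8% and 22.2%. The same shares are the background of its sub-lists. Its 22 other spindle, motor and cytokinesis genes were higher for 18 and 17, and none was lower. Of 30 subunits of the centromere network and outer kinetochore, 21 were higher in SK-N-BE2 and 15 in NGP, again with none lower. CENPI, an inner kinetochore subunit, went from 5.60 ± 0.895 to 17.7 ± 0.352 CPM (SD, n = 3) in SK-N-BE2 (a log2 fold change of 1.62, SE 0.13, adjusted p = 3.61e-07), the largest rise of the list there. CENPW, which binds DNA in the same network, went from 9.37 ± 2.67 to 35.5 ± 2.70 CPM in NGP (a log2 fold change of 1.90, SE 0.20, adjusted p = 0.000206), the largest rise there. Of 16 condensin and cohesin genes, 12 were higher and 1 lower in SK-N-BE2, and 8 were higher in NGP. The 13 other checkpoint and entry regulators had 7 higher and 1 lower in each line. Among them MAD2L2, better known from DNA repair, had the largest fall in NGP, from 48.05 ± 12.1 to 24.2 ± 1.21 CPM (edgeR gave a log2 fold change of -1.02, SE 0.17, adjusted p = 0.0021).

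For the anaphase-promoting complex and its regulators, higher and lower calls were equal in number. Of 17 genes, 4 were higher and 4 lower in SK-N-BE2 (median -0.00182), and 3 were higher and 3 lower in NGP (median -0.03). Higher calls took 23.5% and 17.6% of these genes, near the 26.9% and 19.4% of all genes. ANAPC15, a small subunit that helps the complex release the checkpoint, was called lower in SK-N-BE2, from 12.99 ± 3.16 to 7.54 ± 0.0202 CPM (edgeR gave a log2 fold change of -0.82, SE 0.16, adjusted p = 0.000578). In NGP it was called higher, from 6.46 ± 1.61 to 9.66 ± 0.871 CPM (edgeR gave a log2 fold change of 0.56, SE 0.19, adjusted p = 0.0463). Other genes share 27.1% of its exon length. The wider list also held 11 subunits of the DREAM and MuvB complexes, among them the MuvB partners of B-MYB. Of the 11, 5 were higher and 1 lower in SK-N-BE2 (median 0.16), and 2 were higher in NGP (median -0.11). The higher share in NGP, 18.2%, was near the 19.4% of all genes, and that in SK-N-BE2 was 45.5%, against 26.9%. Without NGP DMSO replicate 1, the lower calls of the 109 genes in NGP went from 4 to 14, and without NGP STM2457 replicate 1 or 3 to 2. Lower calls over all genes moved the same way in these fits, from 3027 to 4092, 2057 and 2091.

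Beside the mitosis genes, 42 genes of DNA replication and the G1/S transition were read from the same fits. In SK-N-BE2, 39 were higher and none lower (median log2 fold change 1.11), and in NGP 28 were higher and 2 lower (median 0.58). Higher calls took 92.9% and 66.7% of the list, against 26.9% and 19.4% of all genes. The 2 lower calls in NGP were lost without NGP DMSO replicate 3, STM2457 replicate 1 or STM2457 replicate 2, when none was called, and 1 was left without STM2457 replicate 3. The difference between the lines was called for 25 of the 42, each more positive in SK-N-BE2 (median difference 0.58), against 30.9% of all genes called and 17% called more positive in SK-N-BE2. The 55 mitosis genes had 6 such calls (10.9%, against 17%) and 10 more positive in NGP, against 13.9% (median -0.08).

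Of the markers of adrenergic neuroblastoma, HAND2 had group means from 635 to 824 CPM, GATA3 from 266 to 356 CPM and MYCN from 3970 to 4434 CPM. TH, the first enzyme of catecholamine synthesis, was under 1 CPM in NGP. The summed level of 6 fibroblast markers moved with the mitosis genes. It lay between 106 and 121 CPM in the DMSO libraries of SK-N-BE2 and between 194 and 209 CPM in its STM2457 libraries. In NGP it lay between 189 and 209 CPM and between 452 and 512 CPM. COL1A2, one of them, was under 1 CPM in each group, and their part in the result was not tested. Schwann cell, leukocyte, endothelial and epithelial lists each summed to at most 21.6 CPM in any library.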

How the data were processed

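Messenger RNA was measured in 12 libraries, grouped by the line and treatment in their titles. The deposited values are raw counts of reads per gene made by the authors with featureCounts 2.0.5, per the file headers, on exons of protein-coding genes of GENCODE 33, without strand, without multi-mapping reads or reads on several genes, and as reads rather than pairs. The submitters' processing notes name GRCh38, Trimmomatic 0.36, HISAT2 2.1.0 and Subread 1.5.3. A fragment can therefore add 2 reads, and counting error is understated. Depth was 47242379 to 58159937 reads, so replicate spread rather than depth limits most genes here.

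Each line was fitted alone, over 6 libraries, with the quasi-likelihood test of edgeR 4.0.16 under R 4.3.3. Low counts were removed with filterByExpr at a minimum of 10, libraries were scaled by TMM, and p-values were adjusted over all genes tested after Benjamini and Hochberg (threshold 0.05). All 55 genes passed the filter in both lines and in the fit of the difference between the lines, a contrast over 12 libraries. SE is the log2 fold change over the square root of F. CPM uses the TMM scale of all libraries, with no spike-in, so changes are relative. No label says that replicates were separate cultures, so p-values measure only the spread between these samples. No pair of replicates agreed within sampling noise. NGP DMSO replicate 1 lay apart on component 4 (1.95% of the variance), at -29.7 against 20.3 and 9.26.

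The genes, the other lists and the cell type markers were chosen with earlier results of these data known. Some markers are not reported here. Genes given in full are the largest called change per role and line, each lower or opposite call, and the 3 largest called differences in each direction. Exon overlaps and pseudogenes came from GENCODE 44, the pseudogenes matched by name. Promoter windows came from RefSeq (GRCh38.p14) and were searched on both strands for the CHR, CCAAT and E2F-site motifs. Alternatives were a CPM filter (mean of 1 or more), no filter, DESeq2 size factors, upper-quartile factors, a replicate block, DESeq2 1.42.0, halved counts, a joint fit and leaving out each library. The fits were tested on simulated data.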

Additional observations from a re-analysis of the deposited data

Results flagged for a closer look

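For 16 of the 55 genes the response to STM2457 differed between the lines by the test of the difference, SK-N-BE2 minus NGP on the log2 scale, while 30.9% of all genes tested also had a called difference. Doses and sequencing runs differed with the lines, and their part was not tested.

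More positive in SK-N-BE2 were the transcription factors FOXM1 (1.06, adjusted p = 2.38e-05) and MYBL2 (1.05, adjusted p = 0.000626). The checkpoint protein MAD2L1 differed by 0.92 (adjusted p = 5.19e-05), the kinase AURKB by 0.64 (adjusted p = 0.028), the midzone motor KIF23 by 0.60 (adjusted p = 0.00154) and the phosphatase CDC25B by 0.58 (adjusted p = 0.00619).

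More positive in NGP were NUSAP1 (-1.14, adjusted p = 0.0309), KIF20A (-0.83, adjusted p = 0.000404) and CDCA2 (-0.80, adjusted p = 0.00587). HJURP differed by -0.78 (adjusted p = 0.000348), CDCA3 by -0.76 (adjusted p = 0.00511) and ESPL1 by -0.70 (adjusted p = 0.000233). CENPF differed by -0.63 (adjusted p = 0.0154), MKI67 by -0.55 (adjusted p = 0.0493), CDCA8 by -0.55 (adjusted p = 0.00399) and PLK1 by -0.44 (adjusted p = 0.0363).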

How the results depend on the processing

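Of 156 values of counts, medians and sums under other scalings, filters and tools, 152 kept their direction and size. Here and below, a count kept its size if it lay within 1.5-fold of its main value. The lower calls in SK-N-BE2 went from 2 to 0 in the joint fit of 12 libraries, where CDC25C had -0.28 (adjusted p = 0.104) and CDCA2 -0.23 (0.181). The median in SK-N-BE2 was 0.58 with upper-quartile factors, and that in NGP was 0.68 in the joint fit. The difference between the lines for MKI67 was -0.52 (adjusted p = 0.0565) without a filter.

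Deviations of same-numbered replicates had correlations of -0.163 to 0.142 for SK-N-BE2 and -0.223 to 0.110 for NGP. Those of different-numbered replicates spanned -0.401 to 0.368 and -0.256 to 0.279. With so few libraries per group, the check cannot decide whether same-numbered replicates shared a culture or batch. With the replicate block, the lower calls of the G1/S list in NGP went from 2 to 1, and the differences of MKI67 (-0.55, adjusted p = 0.0683) and NUSAP1 (-1.13, 0.0697) were not called. The other 18 counts and medians kept their size, with 46 genes higher in SK-N-BE2 and 42 in NGP.

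With each library left out in turn, SK-N-BE2 had 44 to 48 higher and 0 to 2 lower calls among the 55, and NGP had 36 to 50 higher calls. Medians ranged from 0.59 to 0.68 and from 0.63 to 0.68. Called differences between the lines ranged from 12 to 27, with 5 to 11 more positive in SK-N-BE2 and 7 to 16 in NGP. Lower calls in NGP ranged from 2 to 14 for the 109 other mitosis genes and from 0 to 3 for the G1/S list. Over all genes, SK-N-BE2 had 6497 to 7849 calls, NGP 3816 to 7897 and the difference between the lines 3701 to 6274. CDC25C in NGP, not called, ranged from -0.27 without NGP DMSO replicate 2 to 0.0073 (adjusted p = 0.958), a change of sign, without NGP DMSO replicate 1. Few reads limit NUSAP1, near 1 CPM.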
